A study of Mus musculus with 12 samples.

Results

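Hkdc1, Hk1, Hk2 and Hk3 make up the hexokinase family described here in RNA of full-thickness distal colon. The members were taken by gene symbol, which gave 4 of 35241 genes and 36 of 113193 transcripts of the deposited table. Hkdc1 was chosen by its measured level, which differed between genotypes in these same mice, so its values by genotype are a description with no test, whereas Hk1, Hk2 and Hk3 entered by family alone. The 6 Spry2IEKO mice (Vil1::Cre;Spry2-f/f) carried 2 floxed Spry2 alleles and Cre under the villin promoter, which is active in the intestinal epithelium and not in the muscle, stroma or immune cells of the same tissue. The 6 littermate Spry2FF mice (Spry2-f/f) carried the same floxed alleles without Cre. Each genotype had 3 mice of litter A and 3 of litter B. Among the Spry2FF mice 3 of 6 were male, and among the Spry2IEKO mice 1 of 6. The labels give the age once as 6 weeks and once as 8 weeks. Mice are named by genotype and the number in their title.

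Values are TPM, the length-normalized abundance of a transcript among all transcripts of a sample, which the authors scaled once more between mice; they were summed over the transcripts of a gene and are called normalized TPM. They totalled 918816 to 1069158 per mouse and are no read counts. The paper gives only an approximate depth per sample, so the depth of each mouse is unknown and its counting error cannot be given. Each mouse had 18655 to 19753 genes above 0. Spry2, the targeted gene, fell by 0.45 on the log2 scale (standard error 0.0877, limma adjusted p = 0.16) in a tissue whose other layers keep the gene. Epithelial markers were high in every mouse, with a summed level of 14 colon surface genes from 10172.1 to 17651. In Spry2IEKO mice 4 and 5 the summed level of 8 fat genes was 632 and 1176.69, against 27.5 to 120 in the Spry2FF mice. Several results, though not all, are also given without Spry2IEKO mice 4 and 5.

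Hexokinases use ATP to phosphorylate glucose to glucose-6-phosphate, the first committed step of glucose use, from which glycolysis, the pentose phosphate pathway, the hexosamine pathway and glycogen synthesis branch. Hk1 is the broadly expressed form and Hk2 the form known to rise with growth signals and low oxygen; both can dock on the porins of the outer mitochondrial membrane. Hk3 is known mainly from myeloid cells. Hkdc1, a further member, lies beside Hk1 on the chromosome and is known from epithelia, with a weaker glucose-phosphorylating activity.

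All 4 genes lie on the minus strand in GENCODE M21 on GRCm38. Hk1 (ENSMUSG00000037012) spans 62268855 to 62379908 of chromosome 10, and Hkdc1 (ENSMUSG00000020080) spans 62383137 to 62422491 of the same chromosome. A gap of 3228 bases separates the upstream end of Hk1 from the downstream end of Hkdc1. Hk2 (ENSMUSG00000000628) lies on chromosome 6 from 82725025 to 82774454, and Hk3 (ENSMUSG00000025877) on chromosome 13 from 55005985 to 55021385. No gene overlaps Hkdc1, whereas Hk1 overlaps the antisense gene Hk1os, Hk2 the antisense gene Gm17034 and Hk3 the coding gene Unc5a. No stretch of 31 bases, the unit that kallisto matches, was shared between transcripts of any pair of the 4 genes.

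Promoter windows of 300 bases from RefSeq (GRCm38.p6), 250 before to 50 after the start, are printed for the 3 members with a mean of at least 0.5. They show how the starts differ in sequence between neighbours that are expressed at very different levels. Capitals mark ACGTG (also written CACGT) and GGAAGT (also written ACTTCC), each on either strand. ACGTG is a form of the core letters of sites read by hypoxia-inducible factors, and GGAAGT holds core letters of sites read by ETS factors. The other form of the first, GCGTG, was not searched. It is unmarked where it occurs, as in the windows of Hkdc1 and of the downstream start of Hk1.
Hkdc1, chr10:62422408-62422707, minus strand: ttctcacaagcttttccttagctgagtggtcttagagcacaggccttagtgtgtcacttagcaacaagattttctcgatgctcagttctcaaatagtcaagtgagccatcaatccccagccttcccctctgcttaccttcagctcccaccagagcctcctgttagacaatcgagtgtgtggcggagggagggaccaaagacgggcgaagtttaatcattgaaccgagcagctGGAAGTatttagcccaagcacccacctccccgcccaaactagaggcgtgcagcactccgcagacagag
Hk1, upstream start, chr10:62379859-62380158, minus strand: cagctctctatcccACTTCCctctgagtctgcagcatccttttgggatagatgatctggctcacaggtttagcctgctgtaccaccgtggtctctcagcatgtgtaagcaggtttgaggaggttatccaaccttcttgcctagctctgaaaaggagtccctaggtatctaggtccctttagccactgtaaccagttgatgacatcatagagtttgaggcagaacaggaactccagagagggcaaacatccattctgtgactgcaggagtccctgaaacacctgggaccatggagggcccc
Hk1, downstream start, chr10:62340372-62340671, minus strand: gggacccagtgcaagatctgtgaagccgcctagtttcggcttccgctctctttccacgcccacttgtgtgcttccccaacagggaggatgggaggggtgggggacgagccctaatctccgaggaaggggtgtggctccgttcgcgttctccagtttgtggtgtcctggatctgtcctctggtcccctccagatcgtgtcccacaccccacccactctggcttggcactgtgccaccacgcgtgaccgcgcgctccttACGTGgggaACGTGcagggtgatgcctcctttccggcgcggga
Hk2, chr6:82774405-82774704, minus strand: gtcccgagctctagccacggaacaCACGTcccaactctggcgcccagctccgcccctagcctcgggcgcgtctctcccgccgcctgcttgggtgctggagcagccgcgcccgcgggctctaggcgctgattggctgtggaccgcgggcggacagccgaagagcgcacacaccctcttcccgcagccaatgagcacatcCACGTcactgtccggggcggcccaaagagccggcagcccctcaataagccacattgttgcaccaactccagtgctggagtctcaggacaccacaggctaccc

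The windows of Hk2 and of the downstream start of Hk1 held 25 and 20 CG dinucleotides, and each held 2 matches to ACGTG. The windows of Hkdc1 and of the upstream start of Hk1 held 9 and 1 CG dinucleotides, 1 match to GGAAGT each and none to ACGTG. The window of Hk3, which is not shown, held 7 CG dinucleotides and 1 match to each motif. Among all 32851 promoter windows the median was 7 CG dinucleotides, 19.6% held ACGTG and 23.8% held GGAAGT. A match is a description of letters and not a site.

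Hk1 and Hk2 carried nearly all hexokinase RNA, and Hkdc1 was a minor transcript. Over all 12 mice Hk1 was 83.7 ± 11.9 normalized TPM (SD, n = 12), Hk2 was 59.1 ± 17.3, Hkdc1 was 1.24 ± 0.605 and Hk3 was 0.445 ± 0.538. By mean level, the percentiles of Hk1, Hk2 and Hkdc1 were 89.4, 84.7 and 12.3 among the 15880 genes whose mean reached 0.5, a limit that Hk3 missed.

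The order of the 4 levels was tested within mice by an exact two-sided sign-flip permutation test over the 3 neighbouring pairs, on log2(normalized TPM + 0.5). Hk1 was above Hk2 in 11 of 12 mice, by a mean log2 ratio of 0.53 ± 0.482 (exact permutation p = 0.00293, adjusted p = 0.00439). In Spry2FF mouse 13 the order was turned, with 83.5 normalized TPM of Hk1 and 107 of Hk2. Hk2 was above Hkdc1 in 12 of 12 mice, by a log2 ratio of 5.13 ± 0.605 (exact permutation p = 0.000488, the smallest that this test can give, adjusted p = 0.00146). Hkdc1 was above Hk3 in 10 of 12 mice, by 0.93 ± 0.86. No p is given for this pair, because Hkdc1 was chosen for its level in the Spry2IEKO mice. The reverse order was seen in Spry2FF mouse 3 (0.74 of Hkdc1 and 2.07 of Hk3) and in Spry2FF mouse 10 (0.405 and 0.704). The first of these depends on summing transcripts: with the highest transcript of each gene alone, Hk1 was below Hk2 by 0.39 (adjusted exact permutation p = 0.0376) and was above it in 1 of 12 mice.

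Hkdc1 was higher in the Spry2IEKO mice. The 6 Spry2FF mice had 0.481 (mouse 2), 0.74 (mouse 3), 1.19 (mouse 7), 0.7 (mouse 9), 0.405 (mouse 10) and 1.14 (mouse 13) normalized TPM. The 6 Spry2IEKO mice had 1.77 (mouse 4), 1.75 (mouse 5), 1.74 (mouse 6), 2.3 (mouse 8), 1.0 (mouse 11) and 1.72 (mouse 12). The groups overlapped, since Spry2IEKO mouse 11 lay below Spry2FF mice 7 and 13, and the Spry2IEKO value was the higher one in 34 of 36 pairs of mice. Groups that did not overlap, with the Spry2IEKO mice higher, were found for 30 of 15880 genes (0.189%).

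The 6 Spry2IEKO mice averaged 1.71 ± 0.412 (SD) and the 6 Spry2FF mice 0.777 ± 0.328 of Hkdc1, a ratio of means of 2.21. On the log2(normalized TPM + 0.5) scale, which understates the change of a gene this low, the difference was 0.81 (standard error 0.209) and ranked 308 among the 15880 genes, highest first. It was 1.10 with a pseudocount of 0.1 and 0.62 with a pseudocount of 1. In litter A the difference was 0.82 and the 3 Spry2IEKO mice lay above the 3 Spry2FF mice, whereas in litter B it was 0.80 with 8 of 9 pairs higher. Females alone, 5 Spry2IEKO and 3 Spry2FF mice, differed by 0.61. Without Spry2IEKO mice 4 and 5 the difference was 0.78.

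Litter and sex were not used to pick Hkdc1 and were tested across all 15880 genes with limma and Benjamini-Hochberg adjustment. Hkdc1 averaged 1.28 ± 0.568 in litter A and 1.21 ± 0.692 in litter B (SD, n = 6 each), a log2 difference of -0.08 (standard error 0.212, limma adjusted p = 0.852). By sex it was 1.05 ± 0.835 in 4 males and 1.34 ± 0.494 in 8 females, and with genotype and litter in the model the log2 difference, male minus female, was -0.01 (standard error 0.25, limma adjusted p = 0.995). The genotypes went opposite ways. The 3 Spry2FF males averaged 0.64 ± 0.139 and the 3 Spry2FF females 0.913 ± 0.441 (SD). The only Spry2IEKO male, mouse 8, had 2.3, and the 5 Spry2IEKO females averaged 1.6 ± 0.333. The difference by genotype in litter B minus that in litter A was -0.03 (standard error 0.442, limma adjusted p = 0.998). That standard error is large beside the difference between genotypes itself, so a moderate inequality of the litters was not detectable here.

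**Figure D1:**
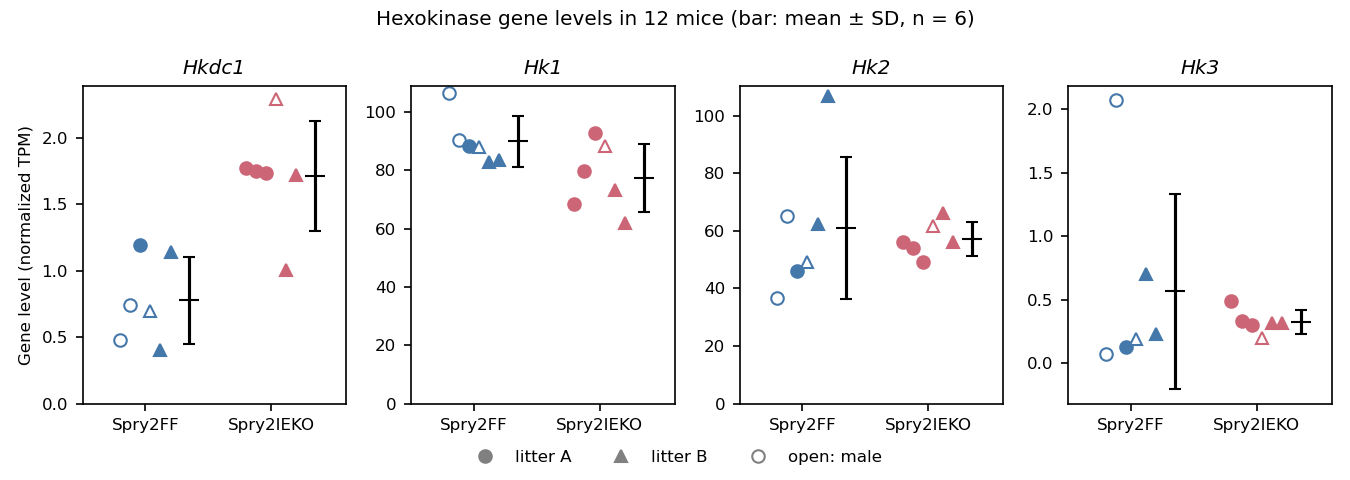
Level of each hexokinase gene in normalized TPM (linear axes, 1 panel a gene) in the 6 Spry2FF mice (blue) and the 6 Spry2IEKO mice (red). Circles are litter A, triangles litter B, open symbols males, and the bar beside each group is its mean ± SD. Hkdc1 is higher in Spry2IEKO mice with an overlap through mouse 11. The Spry2IEKO value is the higher one in 8 of 36 pairs of mice for Hk1 and in 20 of 36 for Hk2. Hk3 is set by 1 Spry2FF mouse at 2.07.

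The full-length transcript carried the difference of Hkdc1 most evenly. Hkdc1-201, with 18 exons, took 77.3% of the gene on average, and the other transcripts of Hkdc1 are annotated as retained introns. Hkdc1-201 ran from 0.387 to 0.886 normalized TPM in the Spry2FF mice and from 0.949 to 1.72 in the Spry2IEKO mice. All 6 Spry2IEKO mice were therefore above all 6 Spry2FF mice, by a narrow gap between Spry2FF mouse 7 and Spry2IEKO mouse 6. Such a split in this direction was found for 47 of 45448 transcripts with a mean of at least 0.5 (0.103%). The means were 1.22 ± 0.318 and 0.595 ± 0.206 (SD, n = 6 each), a log2 difference of 0.66.

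The short transcript Hkdc1-202, with 2 exons and 395 bases, was listed above 0 in 4 mice, all of litter A. It was 0.646, 0.658 and 0.519 normalized TPM in Spry2IEKO mice 4, 5 and 6 and 0.16 in Spry2FF mouse 3, and was listed at 0 in the other 8 mice. Its share of the gene did not pass the test by litter (two-sided exact permutation p = 0.0606 unadjusted, adjusted p = 0.347). Hkdc1-203 was above 0 in 5 mice of both genotypes and both litters, with 0.78 in Spry2IEKO mouse 8 as its highest value. Hkdc1-204 was above 0 in 2 mice, at 0.0713 and 0.0727. The 3 Spry2IEKO mice of litter A thus had sums within 1.74 to 1.77 while only 54.6% to 62.5% of each came from Hkdc1-201, and Spry2IEKO mice 11 and 12 had all of theirs from it.

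**Figure D2:**
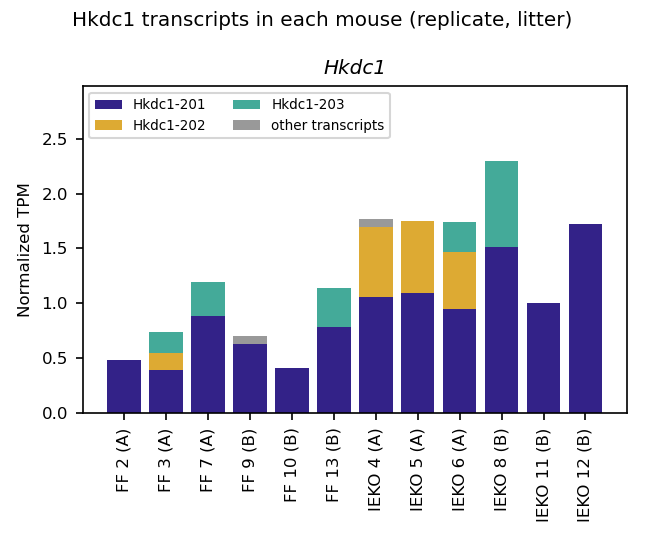
Stacked bars of the Hkdc1 transcripts in normalized TPM for each mouse, named by genotype, number and litter. The lowest segment, Hkdc1-201, is between 0.387 and 0.886 in Spry2FF mice and between 0.949 and 1.72 in Spry2IEKO mice, and Hkdc1-202 appears in 4 mice of litter A alone.

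Hk1 did not pass the test by genotype. It ran from 82.9 to 107 with a median of 88.2 normalized TPM in the Spry2FF mice, and from 62 to 92.7 with a median of 76.6 in the Spry2IEKO mice. The groups overlapped, with the Spry2IEKO value the higher one in 8 of 36 pairs of mice. The means were 90.01 ± 8.72 and 77.4 ± 11.8 (SD, n = 6 each). The log2 difference was -0.22 (standard error 0.0995, limma adjusted p = 0.794). With this test 5 of 15880 genes (0.0315%) passed an adjusted p of 0.05, and 981, Hk1 among them, had an unadjusted p under 0.05. Sex was unequal between genotypes: in males and females Hk1 was 93.4 ± 8.98 (n = 4) and 78.9 ± 10.3 (n = 8), and with sex in the model the difference by genotype was -0.16 (limma adjusted p = 0.999). Males minus females gave 0.19 (standard error 0.0957, limma adjusted p = 0.643, against 0.101% of genes called by sex), and 0.097 without Spry2IEKO mouse 8, the male of that group.

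The RNA of other cell types differed in the same mice. All 8 smooth muscle genes were higher in males, and Actg2 and Synpo2 of them passed the test of sex. Their summed level was 4349.6 to 7190.59 in Spry2FF and 3366.27 to 8222.75 in Spry2IEKO mice. Of the 14 colon surface epithelium genes 12 were negative by genotype, with a median log2 difference of -0.21. None was called and 7 had an unadjusted limma p under 0.05, among them Car1, a carbonic anhydrase of surface colonocytes (-0.64), Ceacam20 (-0.40) and Vil1, which encodes villin of the brush border (-0.23). Their sum was 13171.6 to 17651 in Spry2FF and 10172.1 to 16071.2 in Spry2IEKO mice. All 8 goblet cell genes and all 8 of 9 tuft cell genes that were tested had a higher mean in Spry2IEKO mice. None passed the threshold, and 7 and 3 of them had an unadjusted limma p under 0.05. Without Spry2IEKO mouse 8, 2 of the goblet cell genes were called, in a fit that called 11 of 15877 genes. The goblet sum was 8019.55 to 12156.7 in Spry2FF and 9610.87 to 18562.7 in Spry2IEKO mice, and the tuft sum 10.3 to 22.4 and 18.5 to 43.5. All 7 B cell genes were also positive by genotype, with none called and none at an unadjusted p under 0.05, and sums of 2.54 to 155 and 6.41 to 363. The part of these cells in the levels of Hkdc1 and Hk1 was not tested, and in whole tissue fewer cells of a type and less RNA per cell cannot be told apart.

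Hk2 did not differ beyond its spread by genotype, and its spread in the Spry2FF mice rested in part on 1 mouse. It was 36.6 to 107 with a median of 55.6 normalized TPM in Spry2FF mice and 49.2 to 66 with a median of 56.1 in Spry2IEKO mice. The coefficient of variation was 40.7% and 10.3%, and 22.8% in the Spry2FF mice without mouse 13 (n = 5). The means were 61 ± 24.8 and 57.2 ± 5.89 (SD, n = 6 each), and the log2 difference was -0.01 (standard error 0.2, limma adjusted p = 0.996).
By litter, Hk2 averaged 51.2 ± 9.7 in litter A and 67 ± 20.4 in litter B (SD, n = 6 each), a log2 difference of 0.36 (standard error 0.18, limma adjusted p = 0.27). Litter was the stronger axis over the whole table, with 696 of 15880 genes called (4.38%), though without Spry2IEKO mice 4 and 5 the number fell to 17. Hk1 averaged 87.8 ± 12.9 in litter A and 79.7 ± 10.2 in litter B (-0.14, limma adjusted p = 0.427). By sex Hk2 gave -0.25 (limma adjusted p = 0.785). The difference by genotype in litter B minus that in litter A was -0.32 for Hk2 (standard error 0.365, limma adjusted p = 0.998) and 0.05 for Hk1 (standard error 0.197, limma adjusted p = 0.998), in a test that called 2 of 15880 genes (0.0126%). These values moved with Spry2FF mouse 13: without it the Hk2 difference was 0.17 by genotype, 0.20 by litter and -0.05 by sex, and the interaction was -0.00412, none of them past the threshold.

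Hk3 was near 0 in every mouse but one. It was 0.0685 to 0.704 in 5 Spry2FF mice and 2.07 in Spry2FF mouse 3, and 0.199 to 0.486 in the Spry2IEKO mice. In Spry2FF mouse 3 the short processed transcript Hk3-207 held 1.83 of the 2.07, and it was listed at 0 in the other 11 mice. The longest transcript, Hk3-201, with 19 exons, was listed at 0 in all 12 mice. Others of nearly the same length, Hk3-208, Hk3-202 and Hk3-204, with 18, 19 and 19 exons, were above 0 in 6, 5 and 2 mice. Hk3-201 has 66 stretches of 31 bases found in no other Hk3 transcript, and each of the others named here has 26. The split among them therefore rests on the estimate of kallisto. The difference in means was -0.24 by genotype (two-sided exact permutation p = 0.686) and -0.24 by litter, B minus A (two-sided exact permutation p = 0.697). Of the 10 markers of macrophages and neutrophils, 8 were above the level needed for a test, with sums of 412 to 790 in Spry2FF and 430 to 881 in Spry2IEKO mice. The highest of them was Ly6g, a neutrophil surface marker, which averaged 307.609 normalized TPM, 319 ± 60.4 in Spry2FF and 297 ± 66 in Spry2IEKO mice (SD, n = 6 each, log2 difference -0.11, limma adjusted p = 0.925), whereas the neutrophil genes S100a8 and S100a9 averaged 0.0309 and 0.03.

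**Figure D3:**
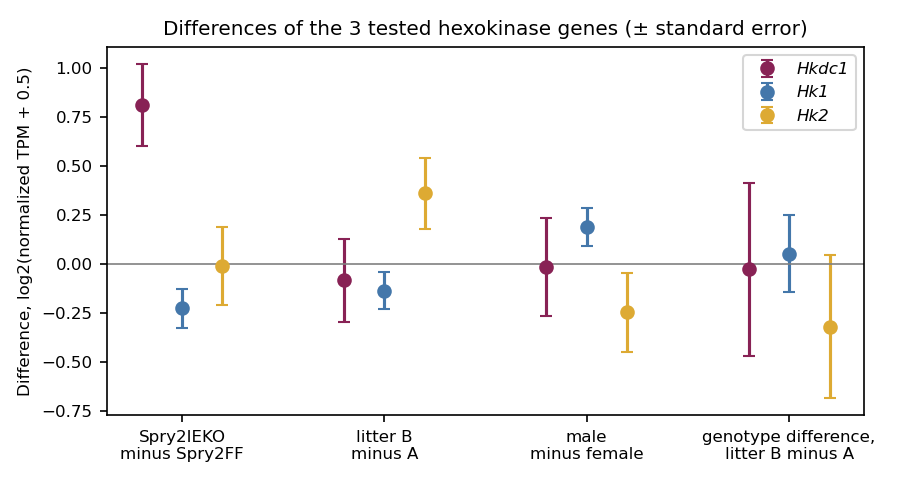
Differences of Hkdc1, Hk1 and Hk2 on the log2(normalized TPM + 0.5) scale, with 1 standard error on each side, for 4 contrasts of the limma fit over 12 mice. Hkdc1 stands at 0.81 by genotype, the contrast it was chosen for, and at -0.08 by litter and -0.01 by sex; the interaction has standard errors of 0.197 to 0.442.

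The transcript make-up of Hk1 and Hk2 was compared as the share of each transcript in its gene, which does not depend on the level of the gene. Of the 20 Hk1 transcripts 8 were above 0 in some mouse, and Hk1-202, Hk1-201 and Hk1-205 took 31.9%, 28.6% and 38.9% of the gene. Hk1-202 starts at 62340542, Hk1-205 at 62342722 and Hk1-201 at 62358362, all downstream of the upstream start at 62379908. Hk1-203, which uses that upstream start, was above 0 in 2 mice, Spry2FF 9 and 13, at 0.519 and 0.573. Hk1-201 has no stretch of 31 bases of its own and Hk1-205 has 14, so the split between them rests on the estimate of kallisto, whereas Hk1-202 has 774. Of the 4 Hk2 transcripts, the full-length Hk2-201 took 73.3% and the 594-base processed transcript Hk2-202, which lies at the downstream end and has 27 such stretches of its own, took 26.7%.

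No share of an Hk1 or Hk2 transcript passed the test by genotype, and the lowest unadjusted two-sided exact permutation p among them was 0.262, for Hk2-202. The shares of Hkdc1 transcripts by genotype are given above without a test. For Hk1-202 the share was 32.6 ± 3.42% in Spry2IEKO and 31.2 ± 1.31% in Spry2FF mice (SD, n = 6 each). The share of Hk2-202 was 30.3 ± 7.13% and 23.2 ± 11.9%. Of 35907 transcripts tested in all genes, none passed after adjustment and 1391 (3.87%) had an unadjusted p under 0.05.

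By litter the shares differed more, without passing adjustment. The library names in the labels carry 1 prefix for litter A and another for litter B, so litter and whatever the prefix marks cannot be told apart. Hk1-202 took 32 to 38.9% of Hk1 in the 6 mice of litter A and 29.2 to 31.4% in the 6 of litter B, so the litters did not overlap (two-sided exact permutation p = 0.00216 unadjusted, the smallest that this test can give). Litters that did not overlap were found for 753 of 35907 transcripts (2.1%). Adjusted over all of these the p was 0.103, the smallest that any transcript reached. The means were 33.6 ± 2.6% and 30.1 ± 0.758%. The share of Hk1-201 was 23.1 ± 5.69% in litter A, and litter B had 34.1 ± 7.38% (exact permutation p = 0.0173 unadjusted, adjusted p = 0.207).

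Hk2-202 took 19.8 ± 9.74% of Hk2 in litter A and 33.6 ± 3.71% in litter B (SD, n = 6 each, exact permutation p = 0.00649 unadjusted, adjusted p = 0.145). In litter A the share was 8.35% and 7.54% in Spry2FF mice 2 and 7 but 31.4% in Spry2FF mouse 3, which lies within the range of litter B (27.9 to 37.7%). Hk2-201 gave the mirror image, 80.2 ± 9.74% and 66.3 ± 3.67% (exact permutation p = 0.00433 unadjusted, adjusted p = 0.126). Of all transcripts, 5505 (15.3%) had an unadjusted p under 0.05 by litter and 0 passed after adjustment. Markers of other layers moved with litter too: 7 of 8 genes of fibroblasts and endothelium were called lower in litter B by limma, beside 3.31% of all genes, with sums of 464 to 734 in litter A and 263 to 432 in litter B. Without Spry2IEKO mice 4 and 5, 1 of the 8 was called, all 8 stayed negative and their median log2 difference was -0.80, against -0.91 with all mice. Their part in the shares was not tested. Without Spry2IEKO mice 4 and 5 the litter difference of Hk2-202 was 16.2 percentage points, and that of Hk1-202 was -2.40.

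**Figure D4:**
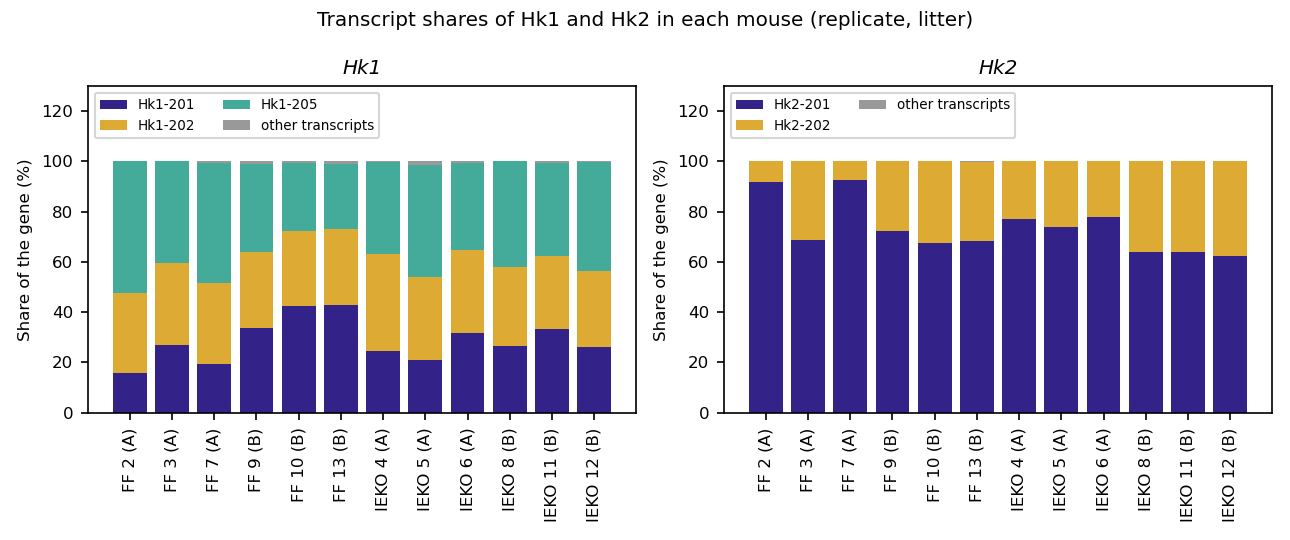
Share of each transcript in its gene (%) for Hk1 (left) and Hk2 (right) in each mouse, named by genotype, number and litter. Hk2-202 takes 7.54 to 31.4% in litter A and 27.9 to 37.7% in litter B, and Hk1-202 stays within 29.2 to 38.9% in all mice.

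Genes around the Hk1 and Hkdc1 pair were examined for a shared difference. Within 200 kb, the genes that reached a mean of 0.5 were Tspan15, Tacr2, Supv3l1, Vps26a, Srgn, Kif1bp, Ddx21 and Ddx50. The annotation also lists Mir7662, Hk1os, 4930507D05Rik, 4933428P19Rik and Gm47257 there, which were not tested. None of the 8 passed the test by genotype with limma. Supv3l1, the nearest tested gene on the upstream side of Hkdc1, was 16.8 ± 2.29 in Spry2FF and 16.4 ± 1.16 in Spry2IEKO mice (log2 difference -0.03, limma adjusted p = 0.977). Srgn, a proteoglycan of blood cells, had the largest difference, 0.52 (standard error 0.49, limma adjusted p = 0.895).

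The pathway genes on both sides of the hexokinase step were counted in lists by role. No gene of the 7 lists passed the test by genotype with limma. Among glucose transporters, 2 of 9 tested genes were positive, with a median log2 difference of -0.05 beside 0.01 for all genes. Slc5a1, the sodium-coupled glucose transporter, was 87.5 in Spry2FF and 72.4 in Spry2IEKO mice (-0.27, standard error 0.0584, limma adjusted p = 0.25), and was the 1 transporter with an unadjusted p under 0.05. Slc2a1, the broadly expressed uptake carrier, was 76.2 and 68.2 (-0.16, limma adjusted p = 0.856). Slc2a10 gave 0.26 and Slc2a3 0.18, while Slc2a2 averaged 0.0309 and Slc5a2 was listed at 0 in all mice.

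No other enzyme listed as acting on glucose or its phosphate passed the test by genotype, and none had an unadjusted limma p under 0.05. Of 5 tested genes 3 were positive, with a median of 0.08. Nagk, the kinase of N-acetylglucosamine, was 59.4 and 63.7 normalized TPM in Spry2FF and Spry2IEKO mice, and G6pc3, a broadly expressed glucose-6-phosphatase, was 51.4 and 51.3. G6pc2 gave the largest rise in mean (0.29, standard error 0.475) and Slc37a4, the glucose-6-phosphate carrier, the largest fall (-0.10, standard error 0.0936), neither past the threshold. The porins Vdac1, Vdac2 and Vdac3 averaged 394, 468 and 353 normalized TPM with differences of 0.00, -0.02 and 0.00.

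No gene of glycolysis after the hexokinase step passed the test by genotype. Of 27 genes 5 were positive, the median log2 difference was -0.09 beside 0.01 over all genes, of which 52.1% were positive, and 6 genes had an unadjusted limma p under 0.05. The summed level was 6355.39 to 7310.25 in Spry2FF mice, 7079.32 in Spry2IEKO mouse 8, the male of its group, and 5684.2 to 6119.69 in the other 5 Spry2IEKO mice. By sex 19 of the 27 genes were higher in males, with none called, and males were 3 of 6 Spry2FF and 1 of 6 Spry2IEKO mice. With sex in the model 5 of 27 were again positive by genotype, with a median of -0.08 and 4 at an unadjusted p under 0.05. Colon surface epithelium genes were also mostly negative by genotype, and the part of sex and of these cells in the glycolysis values was not tested. Gapdh was 1377 and 1195 (-0.20, standard error 0.07, limma adjusted p = 0.693) and Ldha 957 and 879 (-0.13, limma adjusted p = 0.844) in Spry2FF and Spry2IEKO mice. The largest falls in mean were those of Eno3 and Eno2, enolases known from muscle and neurons, at -0.34 and -0.33. The largest rises were those of Pfkfb3 and Pfkfb1, which make the activator of phosphofructokinase, at 0.47 and 0.35. Their spread was wide in the Spry2IEKO mice. Pfkfb3 was 4.67 ± 0.887 in Spry2FF and 7.61 ± 4.65 in Spry2IEKO mice (SD, n = 6 each), and Pfkfb1 was 2.14 ± 0.446 and 3.01 ± 1.3. These rises are not given without Spry2IEKO mice 4 and 5. Pklr, which catalyses the last step in liver and gut, was 51.2 and 42.4 (-0.27, standard error 0.0605, limma adjusted p = 0.295). The pentose phosphate list had 2 of 8 tested genes positive, a median of -0.10 and 3 genes with an unadjusted p under 0.05. Its highest genes, Taldo1 and Tkt, gave -0.15 and 0.07, and G6pdx, the entry enzyme, gave the largest fall in mean, -0.22 (limma adjusted p = 0.753).

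In the hexosamine list 5 of 9 genes were positive with a median of 0.03, and in the glycogen list 9 of 13 with a median of 0.04. Nans and Gne, on the branch to sialic acid, were the highest of the first list at 404 and 335 normalized TPM, with differences of -0.08 and -0.07. Gnpnat1 gave its largest rise in mean, 0.22, and Gfpt2 its largest fall, -0.14, neither past the threshold. Of the glycogen genes, Ugp2 and Pygb were the highest at 148 and 110, with 0.06 and -0.14. Pygl, the liver glycogen phosphorylase, gave 0.58 (standard error 0.292, limma adjusted p = 0.826) and Pygm, the muscle form, -0.23.

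By litter 3 of the 74 tested genes of these lists passed the test, each lower in litter B. This share, 4.05%, was near the 3.31% of all genes called lower by litter. Gfpt1, the rate-limiting enzyme of the hexosamine pathway, gave -0.26 (limma adjusted p = 0.036), and Gnpnat1 of the same pathway gave -0.36 (limma adjusted p = 0.0436). H6pd, which starts the pentose phosphate pathway in the endoplasmic reticulum, gave -0.53 (limma adjusted p = 0.0235). None of the 3 passed without Spry2IEKO mice 4 and 5, where the differences were -0.29, -0.38 and -0.47 for Gfpt1, Gnpnat1 and H6pd (limma adjusted p = 0.105, 0.0923 and 0.105). When any 1 of the 12 mice was left out, the call was lost in 9 cases for Gfpt1, 10 for Gnpnat1 and 3 for H6pd, and the differences stayed within -0.29 to -0.23, -0.42 to -0.31 and -0.60 to -0.46. Gfpt1 and Gnpnat1 also missed the threshold without the filter on low values, and Gnpnat1 and H6pd with quantile normalization.

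**Figure D5:**
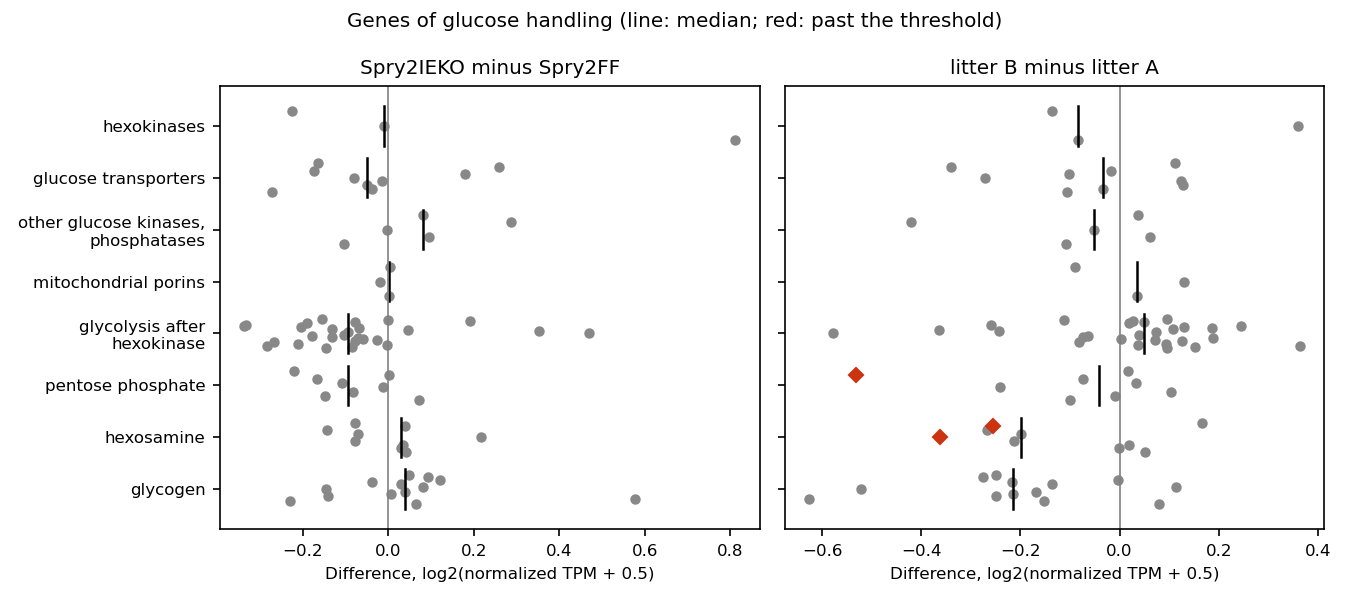
Differences on the log2(normalized TPM + 0.5) scale for the tested genes of the hexokinase list and 7 lists of glucose handling, by genotype (left) and by litter (right). Each point is a gene, the line is the list's median and red diamonds passed a limma adjusted p of 0.05. No gene is red by genotype, and Gfpt1, Gnpnat1 and H6pd are red by litter.

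Genes whose levels followed those of the members over the mice were ranked by Pearson's r on the log2 scale, as a description across mice that share genotype and litter effects. The highest r among 15880 genes over so few mice can be large without any link, and the r that chance alone gives was not tested. Over 12 mice the genes most like Hkdc1 were Rasa4 (r = 0.91), Rasa2 (0.88), B3gnt5 (0.82), Hps4 (0.81) and Armcx1 (0.80). Rasa4 and Rasa2 encode GTPase-activating proteins of Ras. With the mean of each genotype in each litter taken out, the genes most like Hkdc1 over 12 mice were Ogt (0.90), which attaches N-acetylglucosamine to proteins, Golga4, Rasa2 and Apba3 (0.90 each) and Elf3 (0.89), an epithelial ETS factor.
For Hk1 on the same basis they were Gfra4 (0.97), Tmem198b (0.97), Mtss1l (0.96), Nucb1 (0.96) and Tnks1bp1 (0.95). For Hk2 they were Adgrb1 (0.95), P4ha1 (0.93), a collagen prolyl hydroxylase, Slc30a10 (0.90), Adam12 (0.90) and Pbld1 (0.89). No gene was among the 5 of more than one member.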

How the data were processed

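RNA of distal colon from 12 mice was analysed, and genotype, litter and sex came from the deposited labels. The authors pseudoaligned reads with kallisto to mouse transcripts, and deposited per transcript a signal that is TPM with a second scaling between mice; the submitters' processing notes also name CASAVA, sleuth and mm10. The paper gives single-ended and the labels paired-end reads. The authors' own p-values and q-values in the table were not used.

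The 113974 entries held 781 repeats, which were dropped. Genes with names turned into dates (27) were renamed by identifier and 1 was kept under its identifier. Signal was summed per gene. Those whose mean reached 0.5 entered limma 3.58.1, run in R 4.3.3 (trend, two-sided, Benjamini-Hochberg over 15880 genes) on log2(signal + 0.5). Genotype had no covariate, litter had genotype, and sex had genotype and litter. Shares (transcripts of at least 5% of their gene) and Hk3 were tested by exact permutation over mice, and the order of levels by sign flips, with Python 3.11.15, NumPy 2.4.6, pandas 2.3.3 and SciPy 1.17.1. Scripts were tested on simulated data.

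The members and lists were chosen with earlier results of these data known. The share test was first adjusted over the family's transcripts alone, where some litter shares passed; it was changed to all 35907 transcripts after that was seen, and none passed. Named pathway genes were those past the threshold, the 2 highest of a list and the 2 with the largest rise and fall; any other was picked with its values known. Alternatives covered the pseudocount, filter, scaling, covariates, litters or females alone, leaving out mice and single transcripts. An item is not reported here and was left out of its list.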

Additional observations from a re-analysis of the deposited data

Results flagged for a closer look

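Of 36 groups of 6 mice that were examined for a mouse far from the others, 4 had one, and chance alone gives about 1 in 20. Hk1 was 106.742 normalized TPM in Spry2FF mouse 2, against 82.9 to 90.5 in the other Spry2FF mice. Hk3 was 2.07 in Spry2FF mouse 3, against 0.0685 to 0.704. The full-length transcript Hk2-201 was 73.1 in Spry2FF mouse 13, against 33.5 to 44.6. The share of Hkdc1-202 was 21.7% of Hkdc1 in Spry2FF mouse 3, and the transcript was listed at 0 in the other Spry2FF mice.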

How the results depend on the processing

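The difference of Hkdc1 by genotype was positive in every alternative run, from 0.41 in the females of litter A (3 Spry2IEKO mice and 1 Spry2FF mouse) to 1.10 with a pseudocount of 0.1; it was 0.59 in the females of litter B and 0.61 in all females, and from 0.72 to 0.92 when 1 mouse was left out. The number of genes called by genotype, 5, was 1 without the filter, without Spry2IEKO mice 4 and 5, with sex as a covariate or in litter B alone, and 2 with quantile normalization, in females or in litter A alone; it ran from 1 to 11 when 1 mouse was left out. By litter 696 genes became 422 without the filter, 1456 when rescaled to equal totals (1351 of them lower), 462 with quantile normalization (259 lower) and 17 without Spry2IEKO mice 4 and 5, and 180 to 957 when 1 mouse was left out. Rescaling to equal totals moved the median of all genes by litter from -0.05 to -0.12. By sex the range without 1 mouse was 10 to 20, and for the interaction it was 2 to 5, with 7 called without Spry2IEKO mice 4 and 5. The cause of these changes was not tested.

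With the highest transcript of each gene alone, the log2 ratio of Hk1 over Hk2 turned to -0.39 (adjusted exact permutation p = 0.0376). Differences near 0 changed sign: Hk2 by genotype was 0.0119 without Spry2IEKO mice 4 and 5 and 0.15 in litter A alone. Hkdc1 by sex was 4.67e-05 with a pseudocount of 1, 0.0238 when rescaled and 0.0127 with quantile normalization. The interaction was 0.0157 and 0.10 for Hkdc1 under the last 2 settings and -0.16 for Hk1 without Spry2IEKO mice 4 and 5. When 1 mouse was left out, the ranges were -0.14 to 0.17 for Hk2 by genotype, -0.18 to 0.026 for Hkdc1 by litter, -0.34 to 0.13 for Hkdc1 by sex, -0.24 to 0.22 and -0.0756 to 0.18 for the interaction of Hkdc1 and Hk1, -0.34 to 0.0596 and -0.33 to 0.0655 for Hk3 by genotype and litter, -0.81 to 4.47 percentage points for the share of Hk1-205 by genotype, and -4.91 to 2.67 for Hkdc1-203 by litter. No share of Hk1 or Hk2, and no share by litter, passed in any alternative, those within genotypes or litters included.

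No paired analysis was possible because the numbers in the titles of the mice are not shared between genotypes. With the depth of each mouse unknown, differences of Hkdc1 and Hk3, near 1 normalized TPM or below, carry an unknown counting error.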
